A study of Mus musculus with 10 samples.

Results

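The ARID family is a group of nuclear proteins that share the AT-rich interaction domain, a DNA-binding fold. Its members were chosen by gene symbol, and the 10 genes Arid1a, Arid1b, Arid2, Arid3a, Arid3b, Arid3c, Arid4a, Arid4b, Arid5a and Arid5b were all found among the 48897 rows of each expression table. ARID1A and ARID1B occupy the same position in the canonical BAF form of the SWI/SNF chromatin remodelling complex, so that a complex holds one or the other, while ARID2 belongs to the PBAF form. ARID4A and ARID4B bind the retinoblastoma protein and the SIN3-HDAC corepressor complex, and ARID3 and ARID5 proteins act as single DNA- or RNA-binding factors, several of them known from lymphocytes and inflammation. Loss of ARID1A is frequent in cancers, and cells lacking it often depend on ARID1B.

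RNA-seq covered 10 mouse libraries in 4 groups. Prostate epithelium, sorted as EpCAM+ and CD45- cells, came from C57BL/6 mice at 3 months of age, with 3 control libraries (A, B and C) and 3 whose genotype also carries Arid1aPC-/-, labelled Arid1a KO here. The deletion is driven by Cre under the Probasin promoter, which is active in prostate epithelium, and the control mice carry an engineered genotype that both groups share, so they are not wild type. Myc-CaP, a prostate cancer line of FVB strain that overexpresses Myc, gave 2 libraries with an empty vector and 2 with Arid1a knocked out by CRISPR-Cas9. Whether the knockout is a clone or a pool is not given in the sources used here. The labels describe culture of the line but attach the same growth text to every sample, so culture is not settled by them. In the study's methods, sequencing of WT and Arid1a KO Myc-CaP cells is listed apart from that of epithelial cells sorted from subcutaneous tumours. The methods give 3 mice per epithelium genotype, while nothing states that the Myc-CaP replicates came from separate cultures, so p-values there measure only the spread between these libraries, which may be technical.

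Levels in the epithelium were deposited as RPKM, a read count corrected for gene length and sequencing depth, and levels in Myc-CaP as TPM, which is corrected for length and then set to 1 common total per library. Both are per gene length, so members can be ranked within a table. Such ranks, and ratios or shares between genes, rest on gene lengths that are not given in the sources used here. The tables were normalised separately and no level is compared across them. Log2 fold changes are Arid1a knockout minus control on the log2(value + 1) scale, which understates changes of low genes, and were tested with limma in all genes whose level averaged 0.5 or more in the table. A gene was called at a Benjamini-Hochberg adjusted p under 0.05. Depth in the epithelium, estimated from the steps between low values, was 28.8 to 36.3 M reads, and TPM keeps no depth. Within groups, libraries correlated across genes with r between 0.9869 and 0.9935 in the epithelium and between 0.9886 and 0.9894 in Myc-CaP.

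The sort of the epithelium was read against marker genes before the family. Epcam was at 279, 351 and 281 RPKM in the control libraries and at 183, 194 and 225 RPKM in those labelled Arid1a KO. The summed level of 6 epithelial markers, Epcam among them, went from 2247 to 2742 RPKM to 3117 to 3456 RPKM, and in limma the basal keratins Krt5 and Krt14 rose (log2 changes 1.34 and 2.45) while Epcam and Krt18 fell (changes of -0.59 and -0.37). Ptprc, which encodes CD45, was not absent, with 30.3, 26.0 and 29.5 RPKM in the control libraries against 56.2, 58.1 and 57.6 RPKM in those labelled Arid1a KO. Of 5 leukocyte markers 4 rose and 1, Cd52, fell (-1.09, adjusted p = 5.13e-05), and their sum went from 712 to 746 RPKM to 798 to 859 RPKM. The summed level of 6 macrophage markers went from 1533 to 1782 RPKM in the control libraries to 3096 to 3500 RPKM, that of 6 B cell markers, mostly Ighm, from 125 to 140 RPKM to 430 to 752 RPKM, and that of 6 seminal vesicle genes from 18310 to 20710 RPKM to 623 to 1573 RPKM. Without Ighm, the 5 other B cell markers summed to 8.84 to 10.53 RPKM in the controls and to 11.1 to 20.6 RPKM in the libraries labelled Arid1a KO, and Cd79b overlapped between the groups. No marker of these lists was at 0 throughout. The part of these other cells in the results was not tested, and in bulk samples fewer cells of a type and less RNA per cell cannot be told apart. In Myc-CaP, Epcam was listed at 0 in 3 of the 4 libraries, and the summed B cell markers did not exceed 0.272 TPM. Krt8 was at 1.07 and 0.790 TPM with the empty vector and at 40.3 and 38.8 TPM in the knockout. The summed fibroblast markers ranged from 7.1 to 37.3 TPM with the empty vector and from 5.9 to 16.5 TPM in the knockout. Among them, Col1a1 was at 0.211 and 19.4 TPM in empty vector libraries 1 and 2. In knockout libraries 1 and 2 it was at 0.347 and 7.45 TPM. Pdgfra, also among them, was at 6.37 and 6.97 TPM with the empty vector and at 5.05 and 5.01 TPM in the knockout. The source of these transcripts was not tested.

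Arid1a lies on chromosome 4 (133679008 to 133756769, minus strand, GRCm38, GENCODE M21) and was examined first because it is the deleted gene. In the control epithelium it was at 27.8, 21.9 and 26.5 RPKM in libraries A, B and C, and in the libraries labelled Arid1a KO at 31.1, 28.8 and 30.8 RPKM. Every library labelled Arid1a KO lay above every control library, so the level of the gene was not reduced where the label names its deletion. The difference was 0.25 on the log2 scale (95% confidence interval 0.03 to 0.47), with an adjusted p of 0.054, and was not called. One value per gene cannot show the loss of single exons, and directions in the epithelium therefore refer to the libraries labelled Arid1a KO. In Myc-CaP, Arid1a was at 60.5 and 61.0 TPM with the empty vector and at 39.5 and 40.3 TPM in the knockout. It fell by 0.59 (SE 0.06, interval -0.74 to -0.44, adjusted p = 0.0102) to a ratio of 0.657. Both knockout libraries were below both empty vector libraries, and the transcript was present in each. With any 1 of the 4 libraries left out, the change stayed between -0.61 and -0.58 but the adjusted p was 0.112 to 0.121, so the gene was no longer called.

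Arid1b, the alternative subunit, lies on chromosome 17 (4994332 to 5347656, plus strand). In the control epithelium it was at 14.1, 11.3 and 13.5 RPKM, and in the libraries labelled Arid1a KO at 11.7, 10.49 and 12.5 RPKM, ranges that overlapped. The log2 difference of -0.15 (interval -0.38 to 0.09) did not pass the test (adjusted p = 0.237). In Myc-CaP, Arid1b was at 19.7 and 19.0 TPM with the empty vector and at 22.9 and 23.6 TPM in the knockout. These libraries did not overlap, and the difference of 0.25 (interval 0.07 to 0.44) had an unadjusted p of 0.0179 and an adjusted p of 0.129 in limma, so it was not called.

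The balance of the pair was taken as the share of Arid1a in the summed level of Arid1a and Arid1b. In the control epithelium the share was 66.3%, 66.0% and 66.3%, and in the libraries labelled Arid1a KO it was 72.6%, 73.3% and 71.1%. The mean went from 66.2% ± 0.175 to 72.3% ± 1.10 (SD, n = 3 each; exact two-sided permutation p = 0.1, the smallest that 3 against 3 libraries can give). In Myc-CaP the share was 75.4% and 76.3% with the empty vector and 63.3% and 63.1% in the knockout, a difference of -12.6 percentage points (n = 2 each; exact two-sided permutation p = 0.33, the smallest possible). Neither design can reach 0.05. The groups did not overlap in either system, and the share was higher under the Arid1a label in the epithelium and lower in Myc-CaP. The share depends on no scaling of a whole library. The summed level was 38.4 ± 4.63 against 41.8 ± 2.18 RPKM in the epithelium (exact permutation p = 0.3, n = 3 each) and 80.1 ± 0.147 against 63.1 ± 1.07 TPM in Myc-CaP (SD, n = 2 each).

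**Figure D1:**
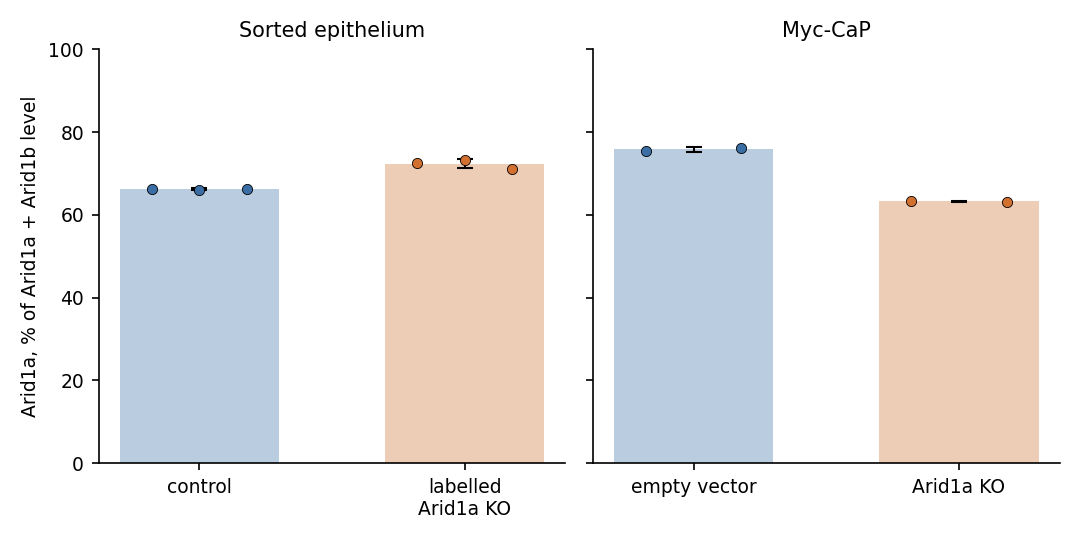
Share of Arid1a in the summed level of Arid1a and Arid1b, in percent on the vertical axis, for the sorted epithelium (n = 3 per group) and Myc-CaP (n = 2 per group). Bars are means, error bars SDs and points libraries. The share lies between 66.0% and 66.3% in control epithelium and between 71.1% and 73.3% under the Arid1a label, and it averages 75.9% with the empty vector and 63.2% in the Myc-CaP knockout.

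Arid2 (chromosome 15, 96287518 to 96404992, plus strand), the PBAF subunit, stood at 8.51, 7.33 and 8.37 RPKM in control epithelium and at 8.51, 8.17 and 9.34 RPKM under the Arid1a label. The ranges overlapped, and the difference of 0.09 (interval -0.10 to 0.29) was not called (adjusted p = 0.354). In Myc-CaP it was at 33.8 and 35.05 TPM against 32.5 and 34.2 TPM, also overlapping, with a difference of -0.04 (interval -0.22 to 0.13, adjusted p = 0.773). Arid1a exceeded Arid2 by a ratio of 2.98 to 3.27 in control epithelium, of 3.30 to 3.65 under the Arid1a label and of 1.74 to 1.79 with the empty vector, and in the Myc-CaP knockout the ratio was 1.21 and 1.18.

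The largest change among the 9 tested members was that of Arid3a (chromosome 10, 79927043 to 79955018, plus strand), a factor known as Bright that activates immunoglobulin heavy chain transcription in B cells. It was at 2.20, 1.62 and 2.12 RPKM in the control libraries and at 5.01, 4.69 and 4.64 RPKM in those labelled Arid1a KO. All 3 libraries labelled Arid1a KO were above all controls, and the mean rose 2.42-fold (log2 change 0.96, SE 0.10, adjusted p = 0.000189). Ighm, the immunoglobulin heavy chain among the B cell markers, was at 123, 130 and 115 RPKM in the control libraries and at 419, 610 and 731 RPKM in those labelled Arid1a KO. The part of B cells or of other cell types in the Arid3a level was not tested. In Myc-CaP, Arid3a was at 6.83 and 7.87 TPM with the empty vector and at 6.67 and 7.05 TPM in the knockout. These ranges overlapped, and the difference of -0.08 (interval -0.38 to 0.21) was not called (adjusted p = 0.734).

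Arid3b (chromosome 9, 57790353 to 57836793, minus strand), the closest relative of Arid3a, was at 1.43, 1.57 and 1.90 RPKM in the control libraries and at 2.49, 2.51 and 2.46 RPKM in those labelled Arid1a KO. The groups did not overlap, and the mean rose 1.52-fold (log2 change 0.41, SE 0.09, adjusted p = 0.00687). In Myc-CaP it was at 3.14 and 2.36 TPM against 3.31 and 2.80 TPM, overlapping and not called (adjusted p = 0.759), with an interval as wide as -0.33 to 0.57. The ratio of Arid3a to Arid3b was 1.03 to 1.54 in the control epithelium and 1.87 to 2.01 under the Arid1a label. Arid3c (chromosome 4, 41723836 to 41731142, minus strand) was too low to be tested. If its smallest value above 0 in the epithelium is taken as 1 read, its values correspond to 0, 2 and 11 reads in the control libraries and 1, 4 and 5 reads in those labelled Arid1a KO. In Myc-CaP it was listed at 0 in 3 of 4 libraries and at 0.0469 TPM in empty vector library 2.

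Arid4a (chromosome 12, 71015990 to 71098592, plus strand), which encodes an RB-binding protein, was at 7.89, 8.62 and 8.58 RPKM in control epithelium and at 8.24, 9.05 and 9.77 RPKM under the Arid1a label. Its paralog Arid4b (chromosome 13, 14063232 to 14199603, plus strand) was at 8.13, 8.65 and 8.25 RPKM against 8.22, 9.10 and 8.51 RPKM. Both overlapped between groups, and the differences of 0.10 (interval -0.09 to 0.28, adjusted p = 0.326) and 0.04 (interval -0.12 to 0.20, adjusted p = 0.627) were not called. In Myc-CaP, Arid4a was at 12.97 and 14.8 TPM with the empty vector and 11.4 and 12.5 TPM in the knockout. The libraries did not overlap, but the difference of -0.20 was not called (adjusted p = 0.36). Arid4b was at 14.9 and 18.2 TPM against 13.5 and 15.6 TPM (difference -0.18, adjusted p = 0.508). The ratio of Arid4b to Arid4a was between 0.870 and 1.03 in all 6 epithelium libraries and between 1.15 and 1.25 in all 4 Myc-CaP libraries.

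Arid5a (chromosome 1, 36307733 to 36324029, plus strand) encodes an RNA-binding protein that stabilises inflammatory transcripts such as Il6. It was at 14.2, 13.2 and 15.3 RPKM in the control libraries and at 16.8, 16.1 and 15.3 RPKM in those labelled Arid1a KO. The groups overlapped by library C of each, and the difference of 0.16 (interval -0.01 to 0.33) was not called (adjusted p = 0.095). In Myc-CaP, Arid5a was at 2.36 and 2.67 TPM against 2.89 and 2.49 TPM (difference 0.07, adjusted p = 0.846).

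Arid5b (chromosome 10, 68092520 to 68278740, minus strand), whose product recruits the histone demethylase PHF2 to chromatin, was at 9.46, 7.54 and 8.87 RPKM in the control libraries. Under the Arid1a label it was at 14.7, 14.0 and 14.1 RPKM, above all controls. The mean rose 1.66-fold (log2 change 0.67, SE 0.09, interval 0.47 to 0.87, adjusted p = 0.000533). In Myc-CaP it was at 5.98 and 6.54 TPM against 6.17 and 7.19 TPM, overlapping, with a difference of 0.08 (interval -0.24 to 0.40, adjusted p = 0.774). The ratio of Arid5b to Arid5a was 0.570 to 0.665 in the control epithelium and 0.873 to 0.921 under the Arid1a label, and in Myc-CaP 2.45 and 2.53 against 2.14 and 2.89.

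Promoter windows of 300 bases across the annotated start were found in RefSeq (GRCm38.p6) for 7 of the 10 members. There was none for Arid2, Arid3a and Arid4a. The windows of the deleted gene and of members that rose, with that of the Arid5a paralog for comparison, are printed 5′ to 3′ on the strand of the gene, with GC boxes (GGGCGG on either strand, overlapping matches counted) in capitals. Arid1a, chr4:133756720-133757019; Arid3b, chr9:57836730-57837029; Arid5a, chr1:36307483-36307782; Arid5b, chr10:68278677-68278976.
Arid1a: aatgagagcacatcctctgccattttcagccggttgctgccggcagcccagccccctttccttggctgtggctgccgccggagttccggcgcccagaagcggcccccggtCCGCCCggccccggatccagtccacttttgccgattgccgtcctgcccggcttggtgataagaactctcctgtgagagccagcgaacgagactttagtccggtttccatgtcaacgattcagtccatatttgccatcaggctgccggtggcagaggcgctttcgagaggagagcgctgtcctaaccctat
Arid3b: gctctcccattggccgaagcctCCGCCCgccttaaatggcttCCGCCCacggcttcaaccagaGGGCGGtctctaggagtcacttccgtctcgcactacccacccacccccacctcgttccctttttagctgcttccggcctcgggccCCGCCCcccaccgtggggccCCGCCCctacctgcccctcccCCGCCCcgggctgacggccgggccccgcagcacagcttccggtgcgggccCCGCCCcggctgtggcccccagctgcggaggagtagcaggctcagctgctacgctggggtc
Arid5a: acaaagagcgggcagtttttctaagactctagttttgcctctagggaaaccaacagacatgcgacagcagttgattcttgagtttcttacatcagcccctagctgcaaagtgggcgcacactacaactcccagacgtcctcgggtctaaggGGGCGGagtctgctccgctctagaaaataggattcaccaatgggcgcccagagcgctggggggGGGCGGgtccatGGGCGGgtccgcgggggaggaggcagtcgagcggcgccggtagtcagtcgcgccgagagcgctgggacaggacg
Arid5b: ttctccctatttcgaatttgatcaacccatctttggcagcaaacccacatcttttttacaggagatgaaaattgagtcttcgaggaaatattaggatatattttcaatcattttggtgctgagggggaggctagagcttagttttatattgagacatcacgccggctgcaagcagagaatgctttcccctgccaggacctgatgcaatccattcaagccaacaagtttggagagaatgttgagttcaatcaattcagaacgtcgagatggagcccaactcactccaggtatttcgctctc

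The windows of the members that rose were unlike one another. The Arid3b window held 7 GC boxes, 25 CpG dinucleotides and 72.3% G and C, whereas that of Arid5b held 0 GC boxes, 7 CpG dinucleotides and 43.3% G and C. The Arid5a window held 3 GC boxes and that of Arid1a 1. Of all 32851 windows in the table, 35.7% held a GC box, and the median window had 52.7% G and C and 7 CpG dinucleotides. The AP-1 motif TGACTCA, the E-box CACGTG and the cyclic AMP response motif TGACGTCA, searched on both strands and present in 5.2%, 7.2% and 1.8% of all windows, had 0 matches in the members' windows. A second RefSeq start was listed for Arid1a and for Arid3b, and those windows held 7 and 0 GC boxes. Windows of other starts may differ, and a match is a description of the letters.

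Counted over the family, 3 of the 9 tested members (Arid3a, Arid3b and Arid5b) rose in the epithelium and 0 fell, with 4 at an unadjusted p under 0.05. Over all 16275 genes tested, 57.1% were called, 27.5% higher and 29.6% lower, so 3 calls among 9 genes are below the background share. Libraries of the groups did not overlap for 4 members (those 3 and Arid1a), against 66.7% of all genes. The median log2 difference was 0.16 over the 9 members and -0.03 over all genes. In Myc-CaP, 1 of 9 members was called, Arid1a itself, against 6.43% of all 13974 genes, of which 4.54% were higher and 1.89% lower, and 2 members were at an unadjusted p under 0.05. Libraries did not overlap for 3 members (Arid1a, Arid1b and Arid4a), against 51.5% of all genes. The median was -0.04 over the members and -0.01 over all genes.

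**Figure D2:**
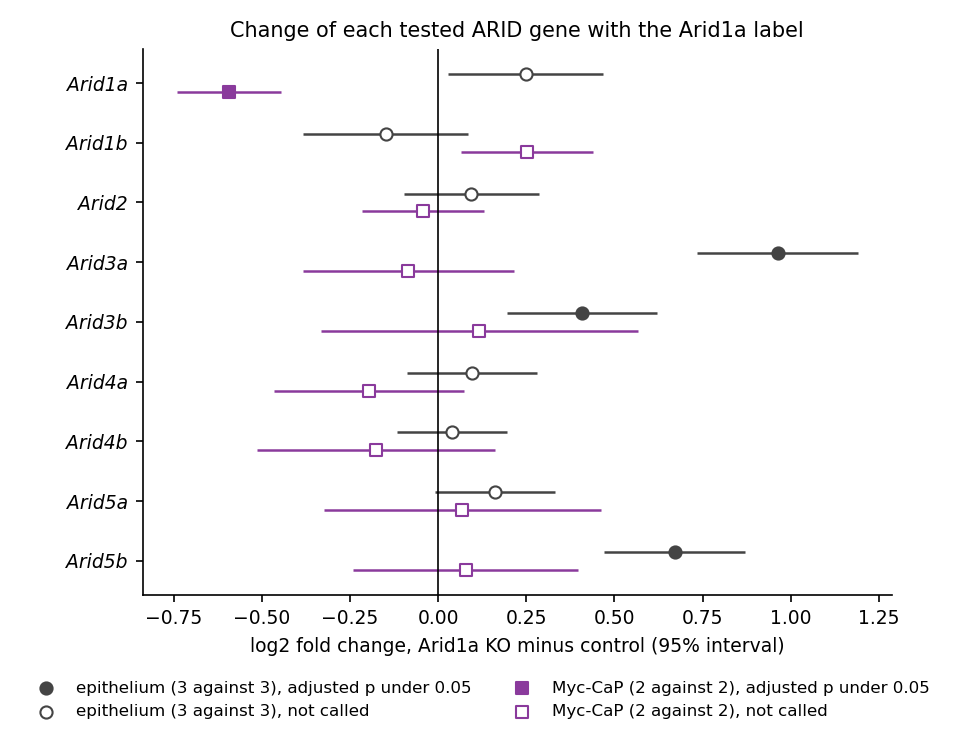
Log2 fold change of the 9 tested ARID genes (horizontal axis, Arid1a knockout minus control on the log2(value + 1) scale) with limma 95% confidence intervals, in the epithelium (circles, 3 against 3) and Myc-CaP (squares, 2 against 2). Filled symbols mark an adjusted p under 0.05, which Arid3a, Arid3b and Arid5b have in the epithelium and Arid1a has in Myc-CaP.

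The calls in the epithelium were set beside other scalings of the same values. The deposited RPKM sums were 397999 to 403031 in the libraries labelled Arid1a KO and 441646 to 473331 in the controls. With every library rescaled to the same sum, the median of all genes moved from -0.03 to 0.11, 7 members were called higher, and Arid1a stood at 0.42 (adjusted p = 0.0129) against that median. That scaling called 9335 of all 16275 genes, against 9294 as deposited. With the trend of the change on gene length removed, Arid1a stood at 0.05 (adjusted p = 0.595), Arid1b was called lower at -0.37, and Arid4b was called lower at -0.24. The length fit called 8157 genes in all, and it covered only genes with a known length. Arid3a, Arid3b and Arid5b stayed higher and called in each of these fits.

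**Figure D3:**
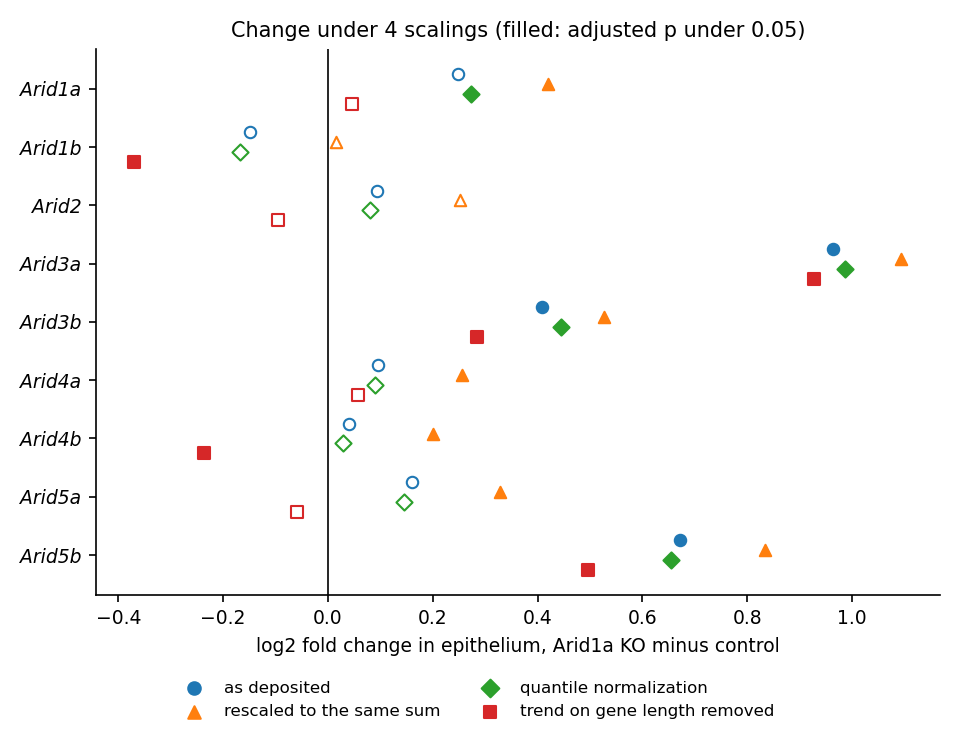
Log2 fold change in the epithelium (horizontal axis) of the 9 tested ARID genes as deposited and under 3 other scalings, with filled symbols for an adjusted p under 0.05. Arid3a, Arid3b and Arid5b are filled under all 4, while Arid1a runs from 0.05 to 0.42 and Arid1b from -0.37 to 0.02.

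The family was ranked by level within each table. In the control epithelium Arid1a led with a mean of 25.4 ± 3.13 RPKM, followed by Arid5a (14.3 ± 1.04), Arid1b (12.97 ± 1.504), Arid5b (8.63 ± 0.983), Arid4a, Arid4b, Arid2, Arid3a, Arid3b and Arid3c (SD, n = 3). Among neighbours in this order, Arid5a and Arid1b, the run from Arid5b to Arid2, and Arid3a and Arid3b overlapped in their libraries. Compared within each library, Arid5a exceeded Arid1b and Arid3a exceeded Arid3b in 3 of 3 controls, while the order within the run from Arid5b to Arid2 varied. Under the Arid1a label Arid5b stood at 14.3 ± 0.386 RPKM, above Arid1b at 11.6 ± 1.02 RPKM and without overlap between their libraries. With the empty vector the order was Arid1a, Arid2, Arid1b, Arid4b, Arid4a, Arid3a, Arid5b, Arid3b, Arid5a and Arid3c, and it was the same in the knockout. In Myc-CaP the libraries of Arid3b and Arid5a overlapped in both groups, and those of Arid3a and Arid5b overlapped in the knockout. Within libraries, Arid3b exceeded Arid5a in 1 of 2 with the empty vector and 2 of 2 in the knockout, and Arid3a exceeded Arid5b in 1 of 2 in the knockout. Arid5a was the second member in the epithelium and the ninth in Myc-CaP, each within its own table.

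**Figure D4:**
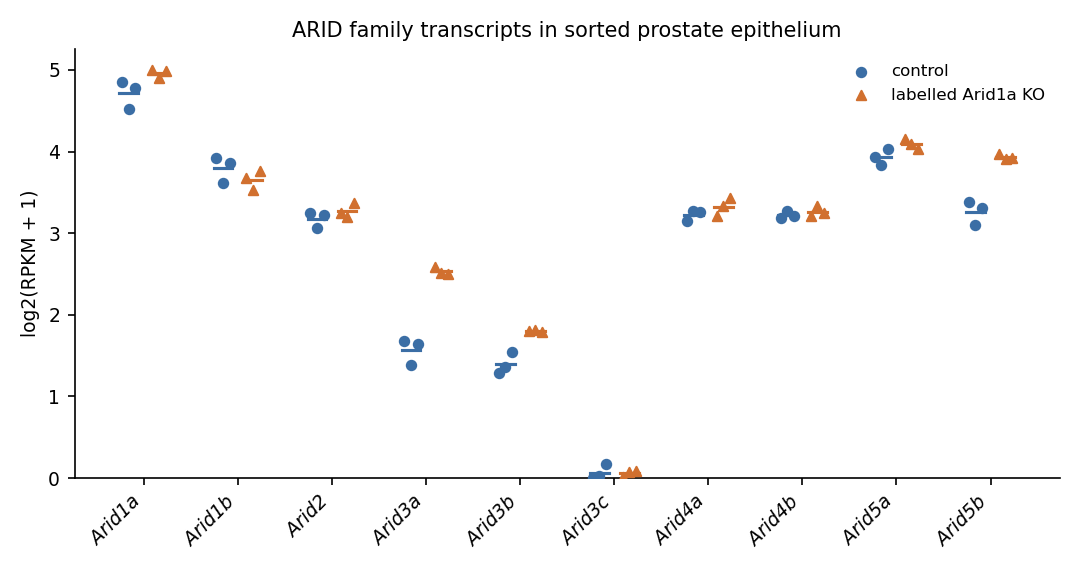
Level of the 10 ARID genes in sorted epithelium, as log2(RPKM + 1) on the vertical axis, with circles for the 3 control libraries, triangles for the 3 libraries labelled Arid1a KO and short lines for group means. Arid1a is the most abundant member in both groups, and the triangles of Arid3a, Arid3b and Arid5b lie above all of their circles.

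**Figure D5:**
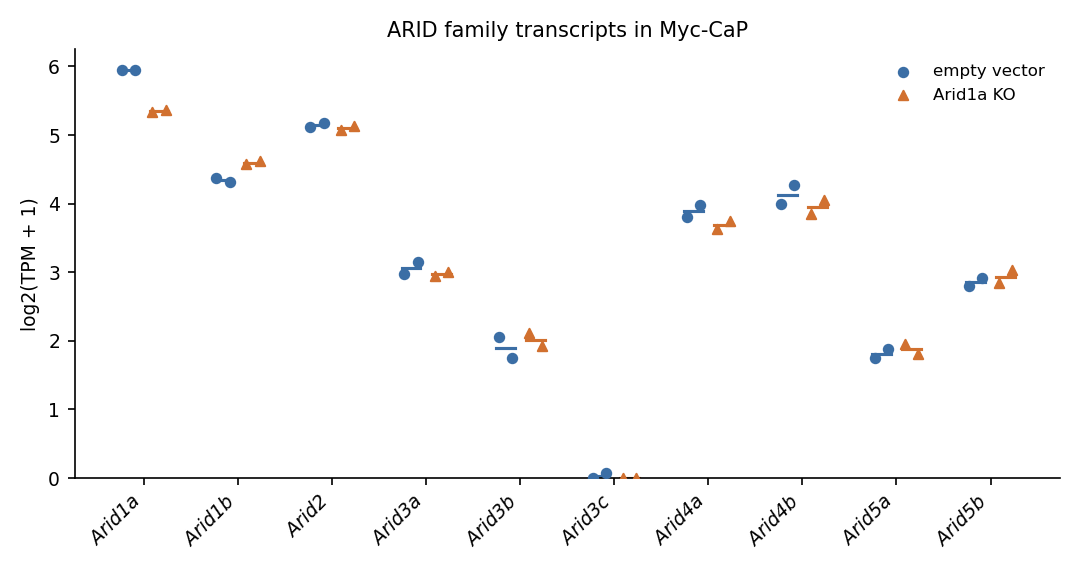
Level of the 10 ARID genes in Myc-CaP, as log2(TPM + 1) on the vertical axis, with circles for the 2 empty vector libraries, triangles for the 2 Arid1a knockout libraries and short lines for group means. The triangles of Arid1a lie below its circles at 39.5 and 40.3 TPM, and those of Arid1b lie above at 22.9 and 23.6 TPM.

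The summed level of the 10 genes was 93.8, 81.7 and 93.6 RPKM in the control epithelium and 107, 103 and 108 RPKM under the Arid1a label. Of this sum Arid1a held 26.8% to 29.7% in the controls and 28.0% to 29.1% under the Arid1a label, which overlapped. Arid1b held 13.8% to 15.1% against 10.2% to 11.6%, Arid5b 9.23% to 10.1% against 13.1% to 13.8%, and Arid3a 1.98% to 2.34% against 4.32% to 4.69%, with no overlap. In Myc-CaP the sum was 160 and 168 TPM with the empty vector and 139 and 146 TPM in the knockout. The share of Arid1a was 37.8% and 36.4% against 28.5% and 27.7%.

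The genes whose profile lay nearest to that of Arid1a, by Euclidean distance on the log2 scale over the libraries of a table, included Raver1 (0.101) and Zswim8 (0.13) over the 6 epithelium libraries. Over the 4 Myc-CaP libraries they were Snx7 (0.108), Lsm14b (0.136) and Tob1 (0.184). Snx7 was at 58.9 and 62.3 TPM with the empty vector and at 38.2 and 38.0 TPM in the knockout.

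The family was then placed among the genes of its pathways. The counts of each list stand beside the shares over all genes tested. In the epithelium 57.1% of all genes were called, 27.5% higher and 29.6% lower, and in Myc-CaP 6.43% were called. Other genes with an ARID domain are Jarid2, a partner of Polycomb repressive complex 2, and the Kdm5 histone demethylases. In the epithelium all 5 of these were called higher, from 0.23 for Kdm5b to 0.39 for Kdm5c (adjusted p = 0.0284 and 0.00235). Kdm5c was at 9.57, 8.60 and 9.81 RPKM in the controls and at 12.4, 12.95 and 12.4 RPKM under the Arid1a label. Only Kdm5c was called once the length trend was removed, and 3 were called without control library C, 2 without library B labelled Arid1a KO and 3 without library C labelled Arid1a KO. In Myc-CaP 0 of the 4 tested were called in limma (2 at an unadjusted p under 0.05), and Kdm5d was listed at 0 throughout. Kdm5b was called lower there once the length trend was removed.

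Of 16 tested canonical BAF partners of ARID1 in the epithelium, 2 rose and 5 fell, against 27.5% and 29.6% of all genes. Dpf2 (0.25, adjusted p = 0.0149) and Ss18 (0.27, adjusted p = 0.011) rose. Smarca2, Smarcb1, Smarcd3, Bcl7b and Bcl7c fell. Smarca2, the alternative ATPase, went from 13.8, 11.6 and 14.1 RPKM to 8.28, 9.51 and 9.44 RPKM, a change of -0.49 (adjusted p = 0.00315), whereas Smarca4 was at 32.1, 33.1 and 32.3 RPKM against 35.1, 32.8 and 35.4 RPKM (adjusted p = 0.266). Without library A labelled Arid1a KO, 1 rose, with every library rescaled to the same sum 4 rose and 4 fell, and with the length trend removed 0 rose. Smarcd3 was the only one of 17 called in Myc-CaP, where it rose from 90.9 and 91.7 TPM to 155 and 160 TPM (0.78, adjusted p = 0.00479), while in the epithelium it fell by 0.64 (adjusted p = 0.000741). Of the 17 in Myc-CaP, 2 were at an unadjusted p under 0.05 in limma. Of the PBAF-specific partners of ARID2 (Pbrm1, Brd7 and Phf10), 0 of 3 were called in either system by limma (0 in the epithelium and 1 in Myc-CaP at an unadjusted p under 0.05), and 2 (Pbrm1 and Brd7) were called higher in the epithelium after rescaling to the same sum. In the epithelium they ranged from Phf10 at -0.03 (adjusted p = 0.745) to Brd7 at 0.16 (adjusted p = 0.088). Of the subunits of non-canonical BAF, which holds no ARID protein, Gltscr1 (0.38, adjusted p = 0.0215) and Gltscr1l (0.30, adjusted p = 0.0474) rose in the epithelium and Brd9 did not pass. The length fit could not be made for the first pair, which lacked an M21 length. This count of 2 was 1 without control library B or C or library A or B labelled Arid1a KO, and 0 without library C labelled Arid1a KO. In Myc-CaP 0 of 3 were called by limma, and 0 were at an unadjusted p under 0.05.

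Of 16 SIN3-HDAC partners of ARID4 in the epithelium, 2 rose and 5 fell, against 27.5% and 29.6% of all genes. Rb1, the retinoblastoma tumour suppressor, was at 4.04, 2.93 and 3.53 RPKM in the controls and at 6.33, 6.60 and 7.09 RPKM under the Arid1a label (0.78, adjusted p = 0.000643), and Sap30 rose by 0.33 (adjusted p = 0.0183). The histone deacetylase Hdac1 (-0.55, adjusted p = 0.000458) and the histone-binding subunit Rbbp7 (-0.62, adjusted p = 0.000667) fell with Rbbp4, Sap18 and Brms1, while Sin3a stood at -0.0016 (adjusted p = 0.986). Without library C labelled Arid1a KO, 1 rose. In Myc-CaP only Sap30l was called, at 86.1 and 87.6 TPM against 132 and 122 TPM (0.54, adjusted p = 0.0144). There 7 of the 16 were at an unadjusted p under 0.05 in limma, Sap30l higher and the others lower. Neither Smarcd3 nor Sap30l was called with any 1 Myc-CaP library left out.

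Of 5 genes tied to ARID5 proteins, as partners, targets or an antagonist, 4 rose in the epithelium and 1 fell, against 27.5% and 29.6% of all genes. Zc3h12a, an RNase that opposes ARID5A on inflammatory transcripts, was at 35.1, 32.3 and 34.6 RPKM in the controls and at 77.1, 79.6 and 65.7 RPKM under the Arid1a label (1.10, adjusted p = 6.41e-05). Tnfrsf4, the T cell costimulatory receptor OX40, rose by 1.54 (adjusted p = 8.87e-05), Stat3 by 0.46 (adjusted p = 0.00142) and Phf2, the demethylase partner of ARID5B, by 0.33 (adjusted p = 0.0168). Il6 was at 29.0, 18.5 and 31.3 RPKM against 19.1, 17.1 and 17.1 RPKM and fell by 0.51 (adjusted p = 0.042). Its groups overlapped, and it was not called without control library A or C, without any 1 library labelled Arid1a KO, after rescaling or with the length trend removed. Without library A or C labelled Arid1a KO, 3 of the 5 rose. In Myc-CaP 0 of 4 tested were called by limma (2 at an unadjusted p under 0.05), with Phf2 at 0.30 (adjusted p = 0.0911) and Il6 too low to be tested.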

How the data were processed

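RNA-seq gene levels of 6 sorted epithelium libraries and 4 Myc-CaP libraries were used, grouped by the genotype given in the labels. The authors counted reads per gene and deposited the epithelium as RPKM and Myc-CaP as TPM. The study's methods name TopHat2 and HTSeq-count on GRCm38, counted by strand, while the submitters' processing notes name HISAT2, HTSeq and mm10, so the aligner is unsettled. Gene lengths behind the units are not given in the sources used here. These units are not counts, so the study's count test was not used. Each series table was compared with its per-sample tables, in which 0 values differed. Depth was estimated from the steps between low RPKM values with GENCODE M21 lengths, but only 18.9% to 21.7% of low values came out whole within 0.02 reads, so reads were not recovered and no counting intervals are given.

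After log2(value + 1) transformation, every gene averaging 0.5 or more in its table entered the test, which left 16275 genes of the epithelium and 13974 of Myc-CaP. In R 4.3.3, limma 3.58.1 was fitted to each table alone, without covariates and with the eBayes trend option, and p-values were two-sided and adjusted by Benjamini-Hochberg over all genes tested. The Arid1a share used an exact permutation test over libraries. Alternatives were a pseudocount of 0.1, no filter, a minimum mean of 5, rescaling to the same sum, quantile normalisation, removal of the trend on gene length (M21 lengths were found for 88.9% and 85.3% of tested genes), eBayes without a trend, a replicate block and leaving out each library.

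The text names all 10 members, the 3 nearest profiles to Arid1a in each table, and listed partner genes called in either table. Partners not called and marker genes named with values were picked after their values were seen. The results of some single genes, and part of the genotype shared by the mice, are not reported here. The members and lists were chosen with earlier results of these data known. Marker lists for T cells, neutrophils, fibroblasts, smooth muscle and endothelium are not described further for the epithelium. In this order they summed there to 24.1 to 29.7, 337 to 474, 1683 to 2456, 114 to 133 and 28.6 to 39.2 RPKM in the controls. Under the Arid1a label they summed to 33.6 to 38.9, 383 to 631, 1401 to 1971, 96.0 to 118 and 39.7 to 50.6 RPKM.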

Additional observations from a re-analysis of the deposited data

Results flagged for a closer look

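In 9 of the 55 members and partner genes tested in both tables (16.4%, against 19.2% of all 12123 genes tested in both), every library moved one way in the epithelium and the opposite way in Myc-CaP, as log2 differences from the control of each table. These were Arid1a (0.25 in the epithelium and -0.59 in Myc-CaP), Jarid2 (0.35 and -0.34), Kdm5b (0.23 and -0.45), Smarcc1 (0.20 and -0.17), Brd7 (0.16 and -0.18), Gltscr1 (0.38 and -0.14) and Stat3 (0.46 and -0.17), all higher in the epithelium libraries labelled Arid1a KO and lower in the Myc-CaP knockout. Smarcd3 (-0.64 and 0.78) and Sap30l (-0.25 and 0.54) went the other way. The difference between the systems was not tested, because the tables are in different units and were normalised separately. Of the 9, only Smarcd3 was called in both systems.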

How the results depend on the processing

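Arid3a, Arid3b and Arid5b kept their direction and call in the epithelium in all 13, 13 and 14 alternatives, with log2 changes of 0.87 to 1.24, 0.28 to 0.58 and 0.50 to 0.83. Members called in the epithelium went from 3 to 7 after rescaling to the same sum and to 5 with the length trend removed. Over all genes, the calls went from 9294 to 9335 and to 8157 in these fits. At a minimum mean of 5, where fewer genes are tested, 5872 genes were called. In the epithelium, Arid1b turned to 0.016 after rescaling to the same sum, and with the length trend removed Arid2 turned to -0.095, Arid4b to -0.24 (adjusted p = 0.0439) and Arid5a to -0.059. Arid1a in the epithelium passed the threshold at a minimum mean of 5 (adjusted p = 0.0465), after rescaling (0.0129), after quantile normalisation (0.0423), with the replicate block (0.0337) and without control library A (0.0342), and its adjusted p ranged from 0.0129 to 0.595 over its 14 alternatives. Arid1b passed without control library B (-0.24, adjusted p = 0.0483).

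In Myc-CaP, 899 genes were called, against 358 with no filter, 451 without a trend, 2771 with the replicate block, and 0 to 53 with 1 library left out, where the lone library is assumed to vary like the other group. The 1 member called became 0 to 0 with 1 library left out. Leaving out 1 library turned the Myc-CaP differences of Arid3a (-0.17 to 0.0048, turned without empty vector library 2), Arid3b (-0.034 to 0.27, also without empty vector library 2), Arid5a (-0.0094 to 0.15, without knockout library 1) and Arid5b (-0.018 to 0.17, without knockout library 2), none of them called. The Arid1a share kept its direction, at 5.66 to 6.74 points in the epithelium and -13.0 to -12.2 points in Myc-CaP with 1 library left out.

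Same-lettered epithelium libraries did not deviate together (r across genes 0.041, 0.009 and -0.057). Same-numbered Myc-CaP libraries did weakly (r = 0.195), and with 2 libraries per group both pairs must give that same value. The labels of such samples share a letter or number, and whether the samples share a batch was not tested. With the replicate block 8823 genes and 4 members (those 3 and Arid1a) were called in the epithelium and 1 member in Myc-CaP, Arid1a with an adjusted p of 0.0018. The block left 3 of the 5 other ARID-domain genes called in the epithelium. In Myc-CaP the block called 2771 of all 13974 genes tested, against 899 without it. It also called 6 SIN3-HDAC partners lower (Brms1, Ing1, Ing2, Rbbp4, Sin3a and Suds3), with Actl6a, Smarcc1, Brd7 and Kdm5b lower and Phf2 higher. In limma, 2 libraries against 2 and the unknown depth of the TPM tables limit what can be told of the low members, such as Arid3b, whose interval in Myc-CaP spans -0.33 to 0.57. The cause of these shifts was not tested.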
